A study of Capra hircus with 9 samples.

Results

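Expression of 10 genes of the Notch pathway was compared between 3 stages of the goat mammary gland. The genes were 4 receptors (NOTCH1, NOTCH2, NOTCH3 and NOTCH4), 4 ligands (JAG1, JAG2, DLL1 and DLL4) and 2 target genes (HES1 and HEY1), chosen by symbol, and all 10 were found among the 23499 genes of the deposited table. Mammary tissue came from 9 healthy Laoshan dairy goats of parity 3 with an average age of 4 years, kept on 1 farm, and each goat gave 1 RNA-seq library. Late lactation (LL) was sampled at 240 days postpartum, the dry period (DP) at 300 days postpartum and late gestation (LG) at 140 days after mating, with 3 libraries per stage. Different goats stood for different stages, so each comparison sets 3 goats against 3 others. Each stage enters more than 1 comparison, so the comparisons share libraries and are given side by side.

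Notch receptors are transmembrane proteins that are activated by Jagged (JAG) and Delta-like (DLL) ligands on neighbouring cells. Ligand binding leads to cleavage of the receptor, and the released intracellular domain joins the DNA-binding protein RBPJ in the nucleus and switches on genes of the HES and HEY families. In the mammary gland the pathway is known for its part in the choice between luminal and basal cell fates, and in blood vessels for its part in sprouting and in the smooth muscle layer.

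The deposited values were read as FPKM, that is fragments per kilobase of gene relative to all mapped fragments, so levels can be compared between genes within a library. Summed over genes, LL libraries held 940676 to 1157010 FPKM, DP libraries 601250 to 616268 and LG libraries 733277 to 768157. Read depth cannot be recovered from FPKM, so the counting error of a value is unknown. For comparisons between stages each library was divided by a median-ratio factor from 15905 genes, which ranged over 0.498 to 0.605 for LL, over 1.44 to 1.53 for DP and over 1.20 to 1.31 for LG. Values after this step are called scaled FPKM. A log2 fold change is on the log2(scaled FPKM + 1) scale, which shrinks changes at low levels. The limma fit covered the 14701 genes that reached 0.5 FPKM in 3 or more libraries. Calls (higher or lower) needed an adjusted p (Benjamini-Hochberg) under 0.05 together with a log2 fold change of 1 or more in either direction. Without scaling, the median log2 fold change of all genes tested moved from 0.00 to 1.09 between LL and DP, from 0.02 to 0.93 between LL and LG, and from 0.01 to -0.18 between DP and LG.

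The table has a gap that bears on the Notch genes. Of the 23499 genes, 1238 had an LL mean from 0.25 to below 0.5 FPKM and 1463 from 1.25 to below 1.5 FPKM, but 9 had an LL mean from 0.5 to below 1 FPKM. The same interval from 0.5 to 1 FPKM held 39 genes in LG and 618 in DP. Just above the gap many genes also shared a pattern over libraries. Among the 1463 genes with LL means of 1.25 to 1.5 FPKM, LL1 was the lowest and LL3 the highest library in 71.3%, against 25.4% of genes with LL means of 0.25 to 0.5 FPKM and 39.5% with LL means of 4 to 8 FPKM. In 38 genes the 3 libraries of a stage lay within 0.05 FPKM above fixed amounts, which were 1, 1.3 and 1.5 FPKM for LL1 to LL3, 1, 1.5 and 1.5 FPKM for DP1 to DP3 and 1.5, 1.2 and 1 FPKM for LG1 to LG3. None of these 38 genes had a library below 0.5 FPKM. The amounts were chosen after the values were seen, and 0 genes lay in this window in all 9 libraries. Of the 1463 genes with LL means of 1.25 to 1.5 FPKM, 955 lay at or above the amounts in all 3 LL libraries. The published methods name a filter on expression and a RUVSeq correction between samples, without saying whether the deposited values went through them. The origin of the gap and of the amounts was not tested. In the alternative with amounts subtracted, they were taken from genes at or above them in all 9 libraries (NOTCH2, NOTCH4, JAG1, DLL1 and HES1 of the Notch genes), and all scaling factors were computed anew, so values of the other genes moved through the factors alone. NOTCH3, JAG2 and HEY1 lay below the gap in LL and above it in DP and LG, and the other 7 genes had stage means above 1 FPKM throughout.

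**Figure D1:**
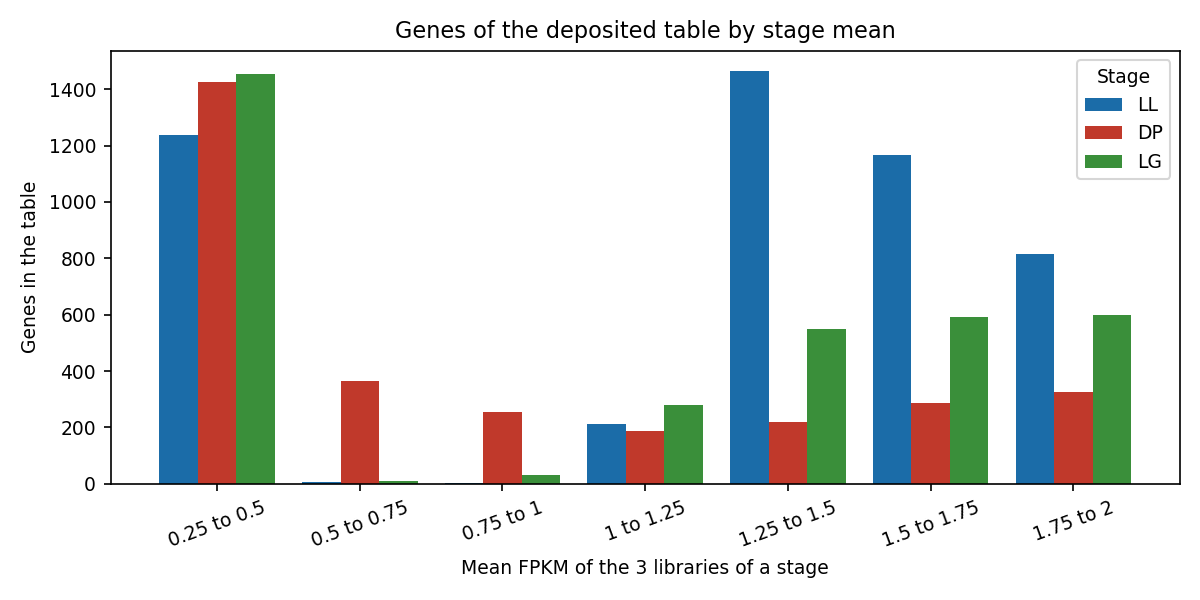
Number of genes in the deposited table (y axis) by the mean FPKM of the 3 libraries of a stage (x axis, steps of 0.25 FPKM), for late lactation (LL), dry period (DP) and late gestation (LG). Between 0.5 and 1 FPKM lie 9 genes in LL and 39 in LG against 618 in DP, with many genes on both sides of that interval.

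The tissue label was checked with marker genes. The gene of beta-casein, CSN2, averaged 94297 ± 9572 FPKM at LL (SD, n = 3), 32.1 ± 15.2 at DP and 4938 ± 1097 at LG. All 7 milk secretory genes tested were lower in DP than in LL, but CSN1S1, CSN1S2 and CSN3 followed each other and are not separate measurements. Keratins of luminal cells (KRT8, with stage means of 41.6, 143 and 90.8 FPKM) and of basal cells (KRT5, with 41.5, 253 and 171 FPKM) were present at all stages, although KRT5 values followed those of neighbouring keratin genes. The DP libraries differed from each other in cell type markers. In DP3 the 10 fibroblast markers summed to 2747 scaled FPKM, against 614 in DP1 and 1058 in DP2, and the 12 mural markers (pericytes and vascular smooth muscle) to 659 against 183 and 232. DP2 had the highest sum of basal markers, at 436 against 130.03 in DP1 and 210 in DP3. DP1 had the most of the fat cell marker ADIPOQ (19.32 FPKM against 0.79 in DP2 and 1.72 in DP3) and of the B cell marker MS4A1 (7.68 against 0.13 and 0.16).

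In DP against LL, 3 of the 10 Notch genes were called higher (NOTCH3, JAG2 and HEY1) and 0 lower, where 13.8% of all genes tested were called higher and 8.79% lower. The scaled values of 5 genes were higher in every DP library than in every LL library, and those of 0 genes were lower, against 32.5% and 33.4% of all genes tested. Among the 7 genes not called, NOTCH1 and JAG1 had an adjusted p under 0.05 in limma. The median log2 fold change was 0.50 for the 10 genes and 0.00 for all genes tested. With scaling factors from strongly expressed genes (10 FPKM or more in every library) the median of all genes tested was 0.54, and NOTCH1 and JAG1 were called higher as well. Of all 14701 genes tested, 4032 were then called higher and 644 lower.

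In LG against LL, 3 genes were called higher (NOTCH3, JAG2 and HES1) and 0 lower, against 10.7% and 6.61% of all genes tested. Scaled values did not overlap in 5 genes that were higher and 2 that were lower in LG, against 31.0% and 30.2% of all genes tested. The median was 0.34 for the 10 genes and 0.02 for all genes. In LG against DP, 1 gene (HES1) was called higher and 0 lower, against 6.37% and 6.88%, and scaled values did not overlap in 1 gene that was higher and 3 that were lower, against 25.1% and 22.8%. The log2 fold change was below 0 in 8 of the 10 genes in this comparison, with a median of -0.38 against 0.01 for all genes. The 10 genes were not tested as a group. NOTCH3, JAG2 and HEY1 passed the filter on low values through DP and LG alone, and 2855 of the genes tested had an LL mean below 0.5 FPKM.

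**Figure D2:**
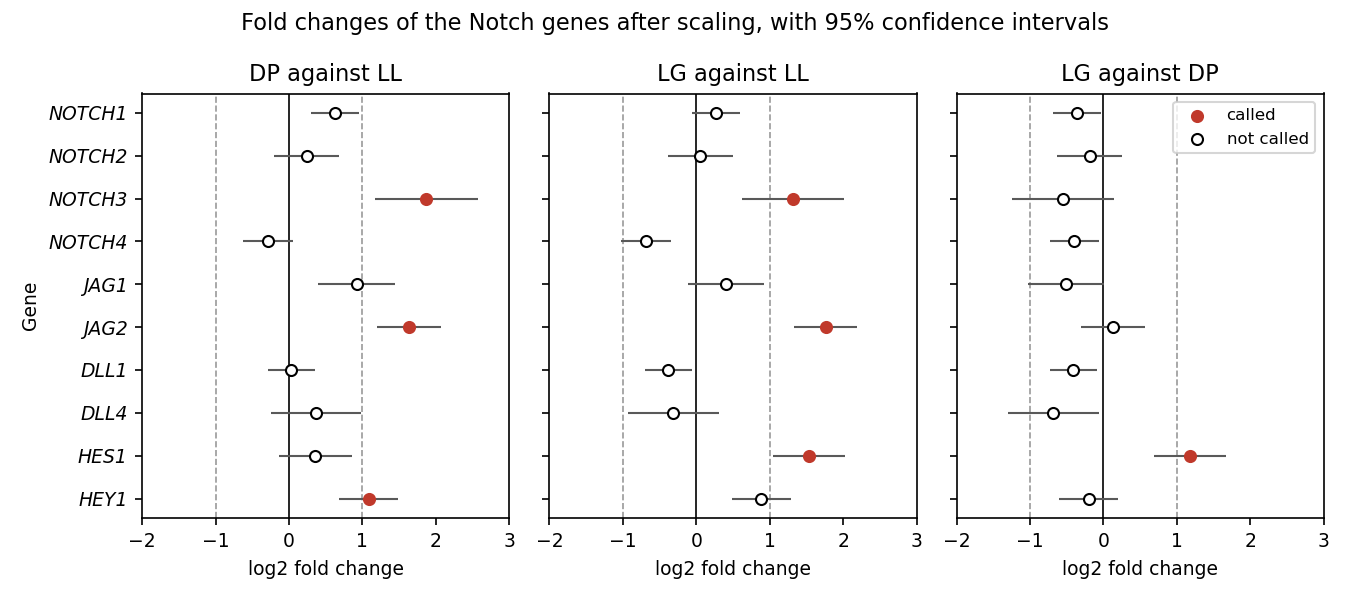
Log2 fold changes after scaling (x axis, points) of the 10 Notch genes (y axis) with 95% confidence intervals from limma (bars) in the 3 comparisons, n = 3 libraries per stage; dashed lines mark a log2 fold change of 1 in size. Filled points are called genes, which are NOTCH3, JAG2 and HEY1 (left panel), NOTCH3, JAG2 and HES1 (middle panel) and HES1 (right panel).

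Levels of the 10 genes were ordered by FPKM within each stage. In LL the order was NOTCH2 (4.48 FPKM), HES1 (3.99), DLL1 (2.06), JAG1 (1.85), NOTCH4 (1.84), DLL4 (1.40), NOTCH1 (1.27), NOTCH3 (0.263), JAG2 (0.223) and HEY1 (0.160). The libraries of neighbours in this order overlapped except between HES1 and DLL1, NOTCH4 and DLL4, and NOTCH1 and NOTCH3. In LL, NOTCH4 lay 0.22 to 0.94 FPKM and DLL4 0.01 to 0.25 FPKM above the fixed amounts, and these ranges overlap. NOTCH1 and NOTCH3 lay on either side of the gap in LL. In DP the order ran from NOTCH2 (14.6 FPKM) and HES1 (14.3) over JAG1 (10.9), NOTCH3 (7.00), NOTCH1 (6.07), DLL1 (5.67), DLL4 (5.43), JAG2 (5.13) and NOTCH4 (3.78) to HEY1 (2.48), and only NOTCH4 and HEY1 were separated as neighbours. In LG HES1 led with 29.1 FPKM, above NOTCH2 (10.7), JAG1 (5.88), JAG2 (4.72), NOTCH1 (3.70), NOTCH3 (3.41), DLL1 (3.27), DLL4 (2.46), NOTCH4 (2.16) and HEY1 (1.67). There HES1 was separated from NOTCH2, NOTCH2 from JAG1, and JAG2 from NOTCH1. NOTCH2 was thus the most abundant receptor and HEY1 the least abundant of the 10 genes by mean at each stage.

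**Figure D3:**
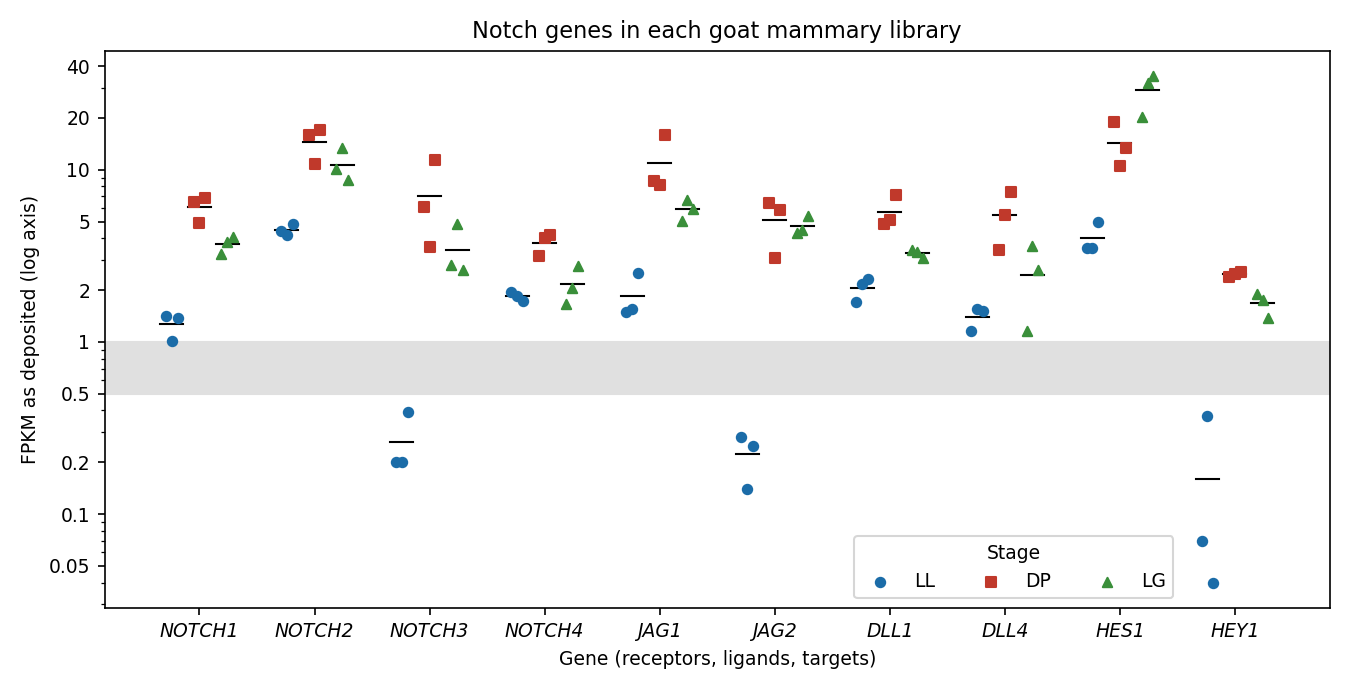
Deposited FPKM (y axis, log scale) of the 10 Notch genes (x axis) in each library, with LL as circles, DP as squares, LG as triangles and the stage mean as a short line; the grey band marks 0.5 to 1 FPKM. NOTCH3, JAG2 and HEY1 lie below the band in all 3 LL libraries, from 0.04 to 0.39 FPKM, and above it in DP and LG.

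Among the receptors, NOTCH3, which is known from the smooth muscle cells of arteries and from pericytes, had the largest log2 fold changes against LL on the deposited values. It measured 0.20, 0.20 and 0.39 FPKM in LL1, LL2 and LL3. In DP1, DP2 and DP3 it measured 6.05, 3.56 and 11.39 FPKM, and in LG1, LG2 and LG3 2.78, 4.83 and 2.62 FPKM. Every DP and LG library was above every LL library, DP3 was the highest of all, and DP and LG overlapped. Its log2 fold change was 1.87 in DP against LL (SE 0.31, limma adjusted p = 0.000872) and 1.32 in LG against LL (SE 0.31, limma adjusted p = 0.00647). In LG against DP it was -0.55 (SE 0.31, limma adjusted p = 0.197). Without DP3 the DP against LL value was 1.47 (limma adjusted p = 0.000847) and the LG against DP value -0.18. With quantile normalization the LG against LL value was 0.89, under the threshold of 1.

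NOTCH1, the receptor with broad roles in epithelium, endothelium and lymphocytes, measured 1.42, 1.01 and 1.38 FPKM in LL, 6.47, 4.89 and 6.85 FPKM in DP and 3.24, 3.80 and 4.06 FPKM in LG. After scaling, all DP libraries (3.39 to 4.76 scaled FPKM) were above all LL libraries (1.83 to 2.85) and all LG libraries (2.71 to 3.09), and LL and LG overlapped. Between LL and DP it had a log2 fold change of 0.63 (SE 0.15, limma adjusted p = 0.00532), which is under the size needed for a call. The value was 1.14 (limma adjusted p = 0.000158) and called with factors from strongly expressed genes, and 0.24 (limma adjusted p = 0.232) with the factors that followed subtraction of the fixed amounts, which also turned the sign for LG against LL (-0.0564). With median-ratio factors on the deposited values it was 0.26 in LG against LL (limma adjusted p = 0.161) and -0.37 in LG against DP (limma adjusted p = 0.0795).

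NOTCH2, the most abundant receptor, measured 4.43, 4.15 and 4.85 FPKM in LL, 15.89, 10.81 and 17.05 FPKM in DP and 10.08, 13.35 and 8.69 FPKM in LG. After scaling its means were 8.14 ± 0.708 at LL, 9.91 ± 2.21 at DP and 8.62 ± 2.11 at LG (scaled FPKM, SD, n = 3), and the libraries of all stages overlapped. The 95% confidence interval of its log2 fold change was -0.20 to 0.68 in DP against LL and -0.39 to 0.50 in LG against LL. The estimates were 0.24 (SE 0.20, limma adjusted p = 0.320) and 0.0535 (SE 0.20, limma adjusted p = 0.840), and LG against DP gave -0.18 (limma adjusted p = 0.498). A difference of NOTCH2 was therefore not resolved with median-ratio scaling. With factors from strongly expressed genes the DP against LL value was 0.85 (SE 0.21, limma adjusted p = 0.00615), and without scaling 1.49 (limma adjusted p = 5.78e-05), called. It was 0.11 without DP3 and 0.07 with the fixed amounts subtracted. The sign for LG against LL turned when LL2 (-0.00906) or LG2 (-0.11) was left out, and with the fixed amounts subtracted (-0.0738).

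NOTCH4, a receptor known mainly from endothelium, had its highest scaled level in LL. It measured 1.94, 1.85 and 1.72 FPKM in LL, 3.14, 4.04 and 4.15 FPKM in DP and 1.66, 2.06 and 2.75 FPKM in LG. Scaled values ran from 2.84 to 3.90 for LL, from 2.05 to 2.88 for DP and from 1.39 to 2.09 for LG, so LG lay below LL without overlap. Between LL and LG its log2 fold change was -0.68 (SE 0.15, limma adjusted p = 0.00451), not called, and without scaling it was 0.14. In DP against LL it was -0.29 (limma adjusted p = 0.128), but 0.75 without scaling, 0.22 with factors from strongly expressed genes and 0.14 with the fixed amounts subtracted. NOTCH4 lay at or above the fixed amounts in all 9 libraries, and with these amounts subtracted the LG against LL value was -0.48 (limma adjusted p = 0.229).

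The makeup of the receptors within a library does not depend on the scaling. Of the summed FPKM of the 4 receptors, NOTCH2 held 57.1 ± 1.42% at LL, 46.7 ± 3.57% at DP and 53.4 ± 4.77% at LG (SD, n = 3). NOTCH3 held 2.50% to 4.68% in LL libraries, 15.3% to 28.9% in DP and 14.5% to 20.1% in LG. For NOTCH4 the shares were 20.6% to 25.7% (LL), 9.95% to 17.3% (DP) and 8.57% to 15.2% (LG). LL did not overlap with DP or LG for NOTCH3 or NOTCH4. With the fixed amounts subtracted, the NOTCH4 shares overlapped, at 4.12% to 15.7% (LL), 7.24% to 12.5% (DP) and 1.08% to 10.9% (LG). The NOTCH3 shares still did not overlap between LL (3.34% to 7.30%) and DP (17.5% to 31.3%) or LG (16.3% to 22.3%). However, the NOTCH3 shares rest on FPKM on both sides of the gap. The amounts were taken from NOTCH2 and NOTCH4 alone, and NOTCH1 was left whole, so values with and without subtraction are mixed.

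**Figure D4:**
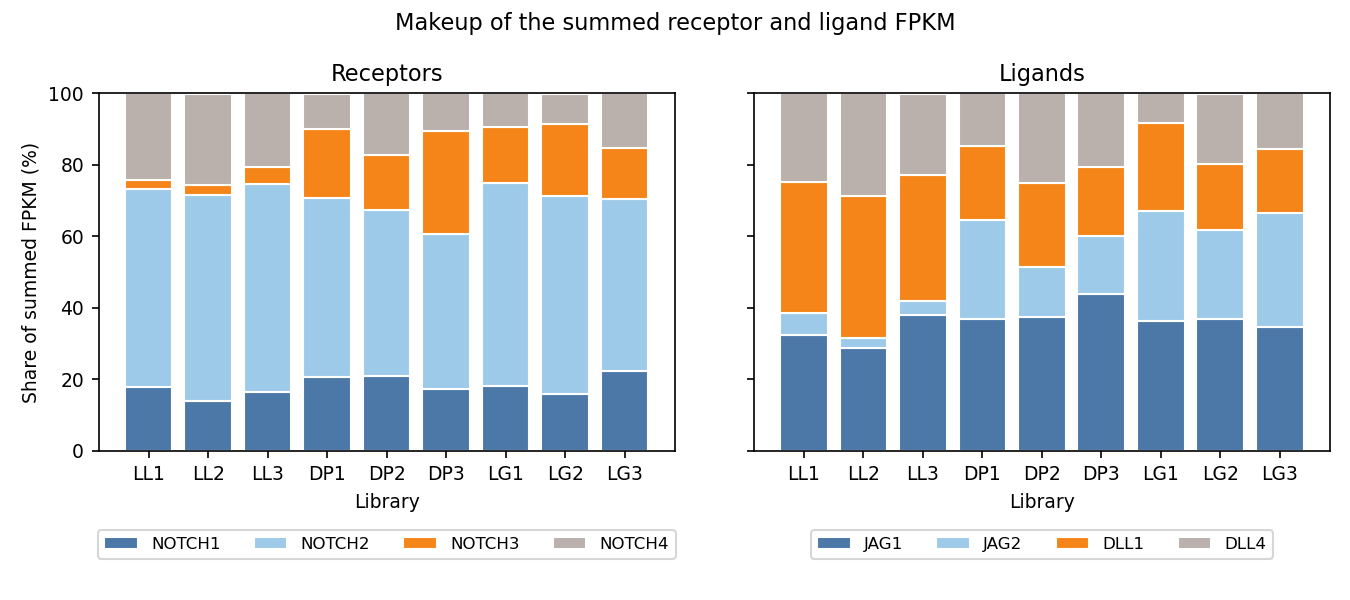
Share of each receptor (left) and each ligand (right) in the summed FPKM of the 4 receptors or the 4 ligands (y axis, percent) in each of the 9 libraries (x axis). NOTCH3 makes up 2.50% to 4.68% of receptor FPKM in LL and 14.5% to 28.9% in DP and LG, and JAG2 makes up 2.59% to 6.05% of ligand FPKM in LL and 14.1% to 31.7% in DP and LG.

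Among the ligands, JAG2 had the largest log2 fold changes against LL on the deposited values and the smallest in LG against DP. With the fixed amounts subtracted or values below 1 FPKM set to 1, JAG1 exceeded it in DP against LL. JAG2 measured 0.28, 0.14 and 0.25 FPKM in LL, 6.45, 3.06 and 5.87 FPKM in DP and 4.29, 4.49 and 5.39 FPKM in LG. All DP and LG libraries were above all LL libraries, and DP and LG overlapped. The log2 fold change was 1.63 in DP against LL (SE 0.19, limma adjusted p = 0.000106) and 1.76 in LG against LL (SE 0.19, limma adjusted p = 9.65e-05). In LG against DP it was 0.13 (SE 0.19, limma adjusted p = 0.637), and the sign turned without scaling (-0.0544), without DP2 (-0.11) and with factors from strongly expressed genes (-0.24). JAG2 made up 4.14 ± 1.76% of the summed ligand FPKM at LL, 19.3 ± 7.36% at DP and 29.1 ± 3.79% at LG (SD, n = 3). With the fixed amounts subtracted the JAG2 shares were 4.98% to 10.6% (LL), 16.3% to 30.3% (DP) and 28.6% to 39.4% (LG), without overlap of LL. The amounts were taken from JAG1 and DLL1 alone. DLL4 was left whole and then held 42.2% to 55.2% of ligand FPKM in LL. These shares thus mix values with and without subtraction, and JAG2 itself lay below the gap in LL. Whether LL stays apart with DLL4 treated alike was not tested.

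JAG1, the other Jagged ligand, measured 1.50, 1.56 and 2.50 FPKM in LL, 8.60, 8.14 and 15.96 FPKM in DP and 5.04, 6.69 and 5.90 FPKM in LG. After scaling, the 3 stages did not overlap, with LL at 2.82 to 4.13, LG at 4.21 to 5.42 and DP at 5.63 to 11.1 scaled FPKM. For DP against LL the log2 fold change was 0.92 (SE 0.23, limma adjusted p = 0.00803), just under the size for a call. It was 0.63 without DP3, which is not called, and 1.05 without LL3, 1.06 without DP1 and 1.05 without DP2, which are called. With the fixed amounts subtracted it was 1.52 (limma adjusted p = 0.00238), so for JAG1 the call depends on these choices. In LG against LL it was 0.41 (SE 0.23, limma adjusted p = 0.171), and in LG against DP -0.51 (SE 0.23, limma adjusted p = 0.115).

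DLL1, a Delta-like ligand, measured 1.70, 2.16 and 2.32 FPKM in LL, 4.81, 5.12 and 7.09 FPKM in DP and 3.40, 3.34 and 3.06 FPKM in LG. After scaling, LG (2.33 to 2.84) was below LL (3.42 to 3.90) and DP (3.15 to 4.93) without overlap. The log2 fold change was -0.38 in LG against LL (SE 0.14, limma adjusted p = 0.0496) and -0.41 in LG against DP (SE 0.14, limma adjusted p = 0.0493), neither called. Without DP3 the LG against DP value was -0.26 (limma adjusted p = 0.148). Without scaling the LG against LL value was 0.48, and with the fixed amounts subtracted it was -0.16 (limma adjusted p = 0.468). DP against LL gave 0.0322 (limma adjusted p = 0.859), with -0.0494 under quantile normalization, -0.0277 without LL1 and -0.11 without DP3. In the other direction it was 0.34 with the fixed amounts subtracted, 0.57 (limma adjusted p = 0.00662) with factors from strongly expressed genes and 1.11, called, without scaling. DLL1 on the minus strand overlaps LOC108636758 on the plus strand, and whether reads were counted by strand is not given in the sources used here.

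DLL4, a ligand of endothelial tip cells, measured 1.15, 1.55 and 1.51 FPKM in LL, 3.41, 5.43 and 7.45 FPKM in DP and 1.15, 3.59 and 2.63 FPKM in LG. After scaling the stages overlapped in every comparison. DP differed from LL by a log2 fold change of 0.37 (SE 0.27, limma adjusted p = 0.268), LG from LL by -0.31 (limma adjusted p = 0.372) and LG from DP by -0.68 (limma adjusted p = 0.0811). Without scaling the LG against LL value was 0.46. The DP against LL value was 0.15 without DP3 and -0.0146 with the factors that followed subtraction of the fixed amounts from other genes. It was 0.61 without DP1, 0.88 (limma adjusted p = 0.0171) with factors from strongly expressed genes and 1.37, called, without scaling. The libraries differed widely within DP and within LG but less within LL, and the coefficient of variation of DLL4 was 9.79% for LL, 39.5% for DP and 49.9% for LG. In bulk tissue, fewer cells of a type and less RNA per cell cannot be told apart for any of these genes.

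HES1, a repressor that Notch signalling induces and that other signals also regulate, had its highest level in LG. It measured 3.50, 3.53 and 4.95 FPKM in LL, 18.97, 10.55 and 13.35 FPKM in DP and 20.21, 32.07 and 35.01 FPKM in LG. All LG libraries (16.9 to 26.6 scaled FPKM) were above all DP (7.32 to 12.4) and LL libraries (6.38 to 8.18), while DP and LL overlapped. The log2 fold change was 1.54 in LG against LL (SE 0.22, limma adjusted p = 0.000464) and 1.18 in LG against DP (SE 0.22, limma adjusted p = 0.00302). In DP against LL it was 0.36 (SE 0.22, limma adjusted p = 0.186), and 0.18 without DP1. With factors from strongly expressed genes the DP against LL value was 0.96 (limma adjusted p = 0.00521), not called. Without scaling it was 1.59 (limma adjusted p = 0.00019), called. HES1 was above the gap in all 9 libraries, and its LG against LL call held under all alternatives run. The LG against DP value was 0.98 without scaling and 0.74 with scaling factors from strongly expressed genes, both under the threshold of 1.

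HEY1, a repressor of the HEY family, had the lowest levels. It measured 0.07, 0.37 and 0.04 FPKM in LL, 2.39, 2.49 and 2.56 FPKM in DP and 1.89, 1.76 and 1.37 FPKM in LG. All DP and LG libraries were above all LL libraries, and the 3 DP libraries had an SD of 0.0854 FPKM. The log2 fold change was 1.09 in DP against LL (SE 0.18, limma adjusted p = 0.00082) and 0.88 in LG against LL (SE 0.18, limma adjusted p = 0.003), and only the former is called. The DP against LL value was 0.67 with quantile normalization, 0.99 without LL3 and 0.88 with the factors that followed subtraction of the fixed amounts from other genes, none of them called. The LG against LL value was 1.13 without LL2, which is called. In LG against DP it was -0.20 (SE 0.18, limma adjusted p = 0.41).

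NOTCH3, JAG2 and HEY1, the Notch genes called higher in DP than in LL, were the ones with LL means below 0.5 FPKM. Of all 2506 genes tested with an LL mean below 0.5 FPKM and a DP mean of at least 1 FPKM, 60.3% were called higher in DP, so calls were common among genes of these levels. This class is defined by a higher mean in DP, and the share is given as a background for the 3 calls and not as a test of the gap. For LG against LL the like share was 55.3% of 2191 genes, with NOTCH3 and JAG2 called and HEY1 not. Of the 11683 genes with LL and DP means of at least 1 FPKM 4.42% were called higher in DP, and 0 of the other 7 Notch genes by limma. For LG against LL this share was 3.03% of 11656 genes, and HES1 was called. With all values below 1 FPKM set to 1, an alternative chosen after the values were seen, the DP against LL log2 fold changes of NOTCH3, JAG2 and HEY1 were 0.93, 0.63 and -0.0684. With a pseudocount of 0.1 they were 2.97, 2.80 and 2.51, so the sizes depend strongly on how low values are treated. With values below 1 FPKM set to 1, 0 Notch genes were called in DP against LL, and HES1 alone in LG against LL. Under that setting all LL values of NOTCH3, JAG2 and HEY1 are 1 FPKM before scaling, so their spread within LL comes from the scaling factors alone. The adjusted p of NOTCH3 and JAG2 in DP against LL (0.0314 and 0.0194, limma) therefore does not test their LL levels. What the LL values of these genes would be without the gap was not tested.

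The other genes of the pathway were taken from a list of 57 genes, of which 56 were in the table and 51 passed the filter. DP had 9 of the 51 called higher than LL and 1 lower, beside 13.8% and 8.79% of all genes tested (median log2 fold change of the 51 genes 0.18). LG had 7 called higher than LL and 0 lower, beside 10.7% and 6.61% (median 0.15). Against DP, LG had 1 called higher and 2 lower, beside 6.37% and 6.88% (median 0.0616). Of the 9 genes higher in DP than in LL, 8 had LL means below 0.5 FPKM, and LFNG was the exception. These 8 were among 12 pathway genes with an LL mean below 0.5 FPKM and a DP mean of at least 1 FPKM, beside the 60.3% called higher among all genes of these levels.

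LFNG, a glycosyltransferase of the fringe family that modifies Notch receptors, measured 1.62, 1.05 and 1.78 FPKM in LL, 13.56, 8.48 and 10.68 FPKM in DP and 4.33, 4.07 and 5.54 FPKM in LG. Its DP libraries were the highest, with 1.19 for DP against LL (log2, SE 0.18, limma adjusted p = 0.000506) and -0.82 in LG against DP (limma adjusted p = 0.00694), the latter not called. RFNG, of the same family, was the most abundant gene of that role and had 0.0714 for DP against LL (limma adjusted p = 0.655).

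Among the nuclear partners, KAT2B, an acetyltransferase and the most abundant of them, was higher in LG. It measured 9.09, 11.76 and 9.35 FPKM in LL, 23.52, 18.70 and 20.48 FPKM in DP and 63.37, 47.75 and 50.33 FPKM in LG. LG exceeded LL by a log2 fold change of 1.19 (SE 0.17, limma adjusted p = 0.000531) and DP by 1.53 (SE 0.17, limma adjusted p = 0.000266). HDAC2, a histone deacetylase, was higher in LG than in LL by 1.21 (SE 0.16, limma adjusted p = 0.000276). Both genes lay above the gap in all 9 libraries, as HES1 did. The related acetyltransferase KAT2A (1.27 in DP and 1.84 in LG against LL) and the coactivator MAML2 (2.04 and 1.64) were called higher but had LL means below 0.5 FPKM. MAML3, a coactivator related to MAML2, was the 1 gene called lower, with -1.33 in DP against LL (SE 0.30, limma adjusted p = 0.00443), and its LL libraries ranged from 1.05 to 3.31 FPKM. Without LL1, the library at 3.31 FPKM, the value was -0.994 (limma adjusted p = 0.00599), just under the size for a call. With factors from strongly expressed genes it was -0.92 and without scaling -0.43, neither called.

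Of the noncanonical ligands, DLK2 was called higher in DP (1.39) and in LG than in LL, with means of 0.0733, 2.96 and 5.55 FPKM at LL, DP and LG. Of the genes for receptor turnover, the E3 ligase genes DTX2 (1.48 and 1.52) and DTX3 (2.02 and 1.56) were called higher in both DP and LG than in LL. NUMBL, related to the Notch inhibitor NUMB, was highest in DP, with 2.13 in DP against LL and -1.49 in LG against DP, and so was HES4, of the HES family, with 2.03 and -1.11. All 5 had LL means below 0.5 FPKM. ITCH, the most abundant turnover gene and an E3 ligase, had -0.68 in DP against LL (limma adjusted p = 0.00692), not called. PSENEN, the most abundant gene of the cleavage role and a gamma-secretase subunit, had -0.50 (limma adjusted p = 0.0124), and 0 of the 9 cleavage genes were called in any comparison. HES5, HES6, HES7, HEY2 and DLL3 did not pass the filter. The values of POGLUT1, ADAM17 and NCOR1 followed those of a neighbouring gene to within 1% of their range, so they are not separate measurements.

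Markers of cell types that carry Notch genes also moved between stages. As background, 13.8% of all genes tested were called higher and 8.79% lower in DP than in LL. The shares were 10.7% and 6.61% in LG against LL, and 6.37% and 6.88% in LG against DP. Of 14 endothelial markers, 0 were called in DP or LG against LL and 3 were lower in LG than in DP. Their summed scaled FPKM was 153, 148 and 179 at LL, 180, 193 and 277 at DP and 89.2, 125 and 122 at LG, with PECAM1 the most abundant, whose values followed a neighbouring gene. Of 12 mural markers, PDGFRB, KCNJ8 and ABCC9 were called higher in DP than in LL. In LG, 0 were called against LL and 4 were lower than in DP. KCNJ8 and ABCC9 lay below the gap in LL (means of 0.08 and 0.0967 FPKM) and above it in DP. The log2 fold changes of the 12 in DP against LL ran from -0.24 to 1.79, with 3 below 0. Their sum was 192, 249 and 223 at LL, 183, 232 and 659 at DP and 155, 194 and 222 at LG, with TAGLN the most abundant, and KCNJ8, a pericyte marker, was listed at 0 in at least 1 library.

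Of 10 fibroblast markers, 9 were called higher in DP than in LL, 2 were called higher in LG than in LL and 6 were called lower in LG than in DP (median log2 fold change -1.52). Their sum was 253, 262 and 379 at LL, 614, 1058 and 2747 at DP and 553, 1000.2 and 698 at LG, with COL3A1 the most abundant. Of 8 leukocyte markers tested, 5 were called higher in DP than in LL, 2 lower in LG than in LL and 6 lower in LG than in DP, and all 10 listed gave sums of 71.9, 55.4 and 59.9 at LL, 176, 147 and 117 at DP and 52.8, 56.2 and 44.6 at LG. TYROBP was the most abundant of them, and MS4A1, a B cell marker, was listed at 0 in at least 1 library. The 14 luminal markers summed to 1167, 1225 and 955 at LL, 424, 703 and 490 at DP and 963, 999 and 1150.3 at LG, with ELF5 the most abundant. Without ELF5 the other 13 summed to 494, 550 and 515 at LL, 398, 659 and 464 at DP and 513, 591 and 653 at LG. The lower DP sums thus came largely from ELF5, although DP1 and DP3 stayed below every LL library without it. Of the 14, 1 was called higher and 2 lower in DP than in LL, with a median log2 fold change of 0.0439. The 1 called higher, FOXA1, had an LL mean of 0.0967 FPKM. In LG, 3 were called higher and 0 lower than in LL, and 5 higher and 3 lower than in DP. The 9 basal markers in the table summed to 174, 206 and 209 at LL, 130.03, 436 and 210 at DP and 204, 242 and 268 at LG, with KRT5 the most abundant and OXTR at 0 in at least 1 library. Of these 9, 1 was called higher (TP63, with an LL mean of 0.137 FPKM) and 1 lower in DP than in LL. In LG, 3 were called higher and 0 lower than in LL, and 1 higher and 1 lower than in DP. DP3, which had the highest mural and fibroblast sums, was also the library with the highest scaled FPKM of NOTCH1, NOTCH2, NOTCH3, JAG1, DLL1, DLL4 and HEY1. Of 6 adipocyte markers 3 were tested, of which CIDEA, the most abundant, was called lower in DP and in LG than in LL, and higher in LG than in DP. All 6 summed to 348, 396 and 259 at LL, 22.2, 3.78 and 5.97 at DP and 21.1, 24.1 and 22.9 at LG, and LEP was listed at 0 in at least 1 library. CIDEA held 96.2% of the summed values, so the sums do not describe the other members. In DP against LL, ADIPOQ had 1.46 (limma adjusted p = 0.0766) and CIDEC -0.21 (limma adjusted p = 0.415), neither called. PLIN1, PLIN4 and LEP, which were not tested, averaged 0.0933, 0.0567 and 0 FPKM at LL. Their DP means were 2.21, 0.617 and 0.347 FPKM, with DP1 the highest library. The part of these cell types in the Notch gene results was not tested.

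For each Notch gene the 2 most similar genes were taken by Pearson r of log2 scaled values over the 9 libraries, among 11735 to 11741 named genes. All r values are descriptions, since the 9 libraries fall into 3 stages. For NOTCH3 they were C5H12orf75 (r = 0.988) and OLFML2A (0.978), for JAG1 MXRA5 (0.989) and FSTL1 (0.984), and for NOTCH1 NAV1 (0.970) and RNF219 (0.966). JAG2 was most similar to OSBPL11 (0.991) and PANK1 (0.990), and 6.48% of its candidates had an r above 0.9, the largest share among the 10 genes. HES1 was most similar to SRRT (0.984), whose values followed a neighbouring gene, and to WNT6 (0.984). For HEY1 they were MALL (0.976) and DIP2A (0.974), for NOTCH4 LCAT (0.963), whose values followed a neighbouring gene, and FAM175A (0.961), for DLL1 TMEM74B and CNGA3 (both 0.991), and for DLL4 ENTPD4 and ZFAND2A (both 0.933). NOTCH2 was most similar to MYBPH and CHI3L1 (both 0.953), whose values followed each other and so count as 1 gene. DLL4 and NOTCH2 had the fewest similar genes, with 0.0597% and 0.0170% of candidates above an r of 0.9.

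The 10 genes lie on 10 different chromosomes, 9 of them on the minus strand, so none neighbours another. The table names no build, but 23465 of its genes have the start and end of the RefSeq annotation of ARS1.2. On it NOTCH3 spans chromosome 7 from 100759288 to 100797619, JAG2 chromosome 21 from 68916680 to 68930760 and JAG1 chromosome 13 from 3735963 to 3771380, all on the minus strand. HES1 spans chromosome 1 from 73098235 to 73100751 on the minus strand, and HEY1 chromosome 14 from 39088862 to 39092710 on the plus strand. In no Notch gene did the values follow those of any of the 8 next genes on either side to within 1% of their range, with or without the fixed amounts.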

How the data were processed

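RNA was extracted with TRIzol, libraries were made with a TruSeq kit, and the submitters' processing notes name FastQC, Trimmomatic, HISAT2, SAMtools and HTSeq, whereas the published methods name StringTie for quantification; which tool gave the values is not settled. The authors deposited 1 table of values per gene and library, with no unit named, which was read as FPKM. How transcripts were combined into genes is not given in the sources used here. The 9 columns were matched to samples by title. Values were divided by median-ratio factors, a pseudocount of 1 was added, log2 was taken, and the genes that reached 0.5 FPKM in 3 or more libraries entered a limma fit (version 3.58.1, R 4.3.3) of all 9 libraries without covariates. Adjusted p-values are Benjamini-Hochberg over all 14701 genes. Python 3.11.15 was used for levels, shares and figures. The fit was also run on simulated data, and no result given here rests on that run. Named genes are all 10 Notch genes, other pathway genes called, the most abundant per role and the 2 most similar genes. The Notch genes and all lists were chosen with earlier results of these data known. Alternatives covered scaling, pseudocount, filter, libraries in the fit, replicate block, trend, call rule and each library left out.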

Additional observations from a re-analysis of the deposited data

How the results depend on the processing

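Among recomputed log2 fold changes of the 10 Notch genes, 551 kept sign and call, 20 became called, 10 lost their call and 19 changed sign. The cause was not tested. Counts are given for DP against LL, LG against LL and LG against DP in this order. Where no count of all genes stands beside them, they show only how calls move with the setting. Such counts are not a result about the Notch pathway. Without scaling, 9, 7 and 0 Notch genes, 34, 31 and 6 other pathway genes and, against LL, 8348 and 7043 of all genes were called. By adjusted p alone the counts were 5, 6 and 2 Notch genes, 29, 25 and 17 pathway genes and 8359, 7383 and 5112 of all genes. A pseudocount of 0.1 gave 17 pathway genes and 3912 of all genes in LG against LL, and 5 pathway genes in LG against DP.

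Without scaling, NOTCH4 had 0.75 in DP and 0.14 in LG against LL, DLL1 0.48 and DLL4 0.46 in LG against LL, and JAG2 -0.0544 in LG against DP. DLL1 in DP against LL had -0.0494 with quantile normalization, -0.0277 without LL1 and -0.11 without DP3. NOTCH2 in LG against LL had -0.00906 without LL2, -0.11 without LG2 and 0.21 without LG3, and JAG2 in LG against DP -0.11 without DP2 and 0.26 without DP1.

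The 3 alternatives in this paragraph were chosen after seeing the data. With values below 1 FPKM set to 1, the median of all genes was -0.14 and -0.13 against LL, 0 and 1 Notch genes, 4 and 2 pathway genes and 1927 and 1393 of all genes were called against LL, and HEY1 had -0.0684 in DP and -0.27 in LG. With scaling factors from genes at 10 FPKM or more in every library, the median of all genes was 0.54, 0.17 and -0.36. Under these factors 5 Notch genes were called in DP against LL, and 18, 11 and 8 pathway genes. Calls among all genes moved as well, with the DP against LL counts given above. NOTCH4 then had 0.22 in DP against LL and JAG2 -0.24 in LG against DP. With the fixed amounts subtracted from genes at or above them in all 9 libraries, which leaves out NOTCH1 and DLL4 and moves them through the factors alone, 11 pathway genes were called in LG against LL, NOTCH4 had 0.14 and DLL4 -0.0146 in DP against LL, and NOTCH1 had -0.0564 and NOTCH2 -0.0738 in LG against LL. The shares of receptors and ligands with these amounts subtracted were also added after seeing the data, with NOTCH1 and DLL4 left whole. The NOTCH4 shares of LL then overlapped with DP and LG.

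Leaving out each library in turn gave 3 to 4, 3 to 4 and 1 Notch genes, and 9 to 11, 7 to 9 and 2 to 5 pathway genes. With the replicate number as a block, 3, 3 and 1 Notch genes were called. Deviations of libraries with the same number correlated at -0.106 to 0.201, and those with different numbers at -0.223 to 0.0722. The highest r (DP1 with LG1) came from the same number and the lowest (DP1 with LG3) from different numbers. The ranges overlapped and different goats stood for different stages, so the numbers were not taken as pairing the samples.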

Other observations

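These values rest on 3 goats per stage and on FPKM with no read counts, so sampling error of weak genes such as HEY1 is unknown. Calls against LL changed with the scaling and when values below 1 FPKM were set to 1. NOTCH3, JAG2 and HEY1 were higher in every DP and LG library than in any LL library, but the size of the difference depends on how values below 1 FPKM are treated. For HEY1 the sign turned when such values were set to 1, where its scaled LL values follow from the scaling factors alone. RNA levels do not show receptor cleavage or signalling.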
